A study of Homo sapiens with 12 samples.

Results

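The clusters described here are the stretches of coding exon and of 5′ untranslated region (5′ UTR) that were recovered with the RNA-binding protein QKI in the endogenous immunoprecipitations of a human cell line. A cluster is a stretch of piled-up reads, and each was assigned to the transcript region that holds most of its bases in the authors' annotation, with the mitochondrial chromosome left out. Coding exons held 15819 and 10416 clusters in the 2 endogenous libraries, and 5′ UTRs held 4009 and 2414. Together these were 32658 of 616191 endogenous clusters. Overlapping or abutting members of both libraries on one strand were merged into 22181 coding exon loci and 5091 5′ UTR loci, at 8334 named genes. Only 2641 coding exon and 935 5′ UTR loci had a cluster in both endogenous libraries.

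QKI (Quaking) is a STAR-family protein that binds RNA through a KH domain. Its nuclear isoform QKI-5 is known for regulating alternative splicing from introns beside exons and for promoting circular RNA formation, while cytoplasmic isoforms act through 3′ UTRs on mRNA stability, localisation and translation. Coding exons and 5′ UTRs are not the regions in which its sites are usually described.

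The series measured binding by eCLIP, in which protein and RNA are crosslinked by ultraviolet light, the protein is immunoprecipitated, and the bound RNA fragments are sequenced beside a size-matched input. The 6 immunoprecipitation libraries fall in 3 groups of 2. In the mutant group, an anti-MYC antibody was used on cells transfected in 10 cm plates with plasmid (10 µg) for myc-QKI-5 (K120A; R124A), which carries both substitutions. In the wild type group the same antibody was used on cells transfected with the same amount of plasmid for unsubstituted myc-QKI-5. Both were cultured for 72 hours after this transient transfection, and both still contained their own QKI. In the endogenous group an anti-QKI antibody was used on unmodified cells. All cells were crosslinked at 254 nm with 400 mJ/cm2. The tagged groups differ from the endogenous one in antibody as well as transfection, and these cannot be told apart. The cells are named HEK293xT in the sample labels and HEK293T in the protocols, a transformed embryonic kidney line, whereas the series' design note speaks of embryonic stem cells on the way to cardiomyocytes. Of the marker lists, 1 of 10 pluripotency genes (DNMT3B), 2 of 20 cardiac genes (TTN and ATP2A2) and 2 of 14 neuronal genes (GAD1 and SYP) had a coding exon locus. Coding exon loci were found at 7380 named genes in all. A listed cluster does not measure expression, so these counts do not tell which cells were used.

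For each cluster the authors give a log2 fold relative to its input, with a −log10 p. A cluster is called enriched here where both were at least 3. The myc files list only clusters with a log2 fold above 0, so an unlisted myc cluster was either not found or not above input. Myc clusters took their region from the endogenous cluster they overlapped on the same strand, which classed 19.6% and 19.5% of mutant and 39.6% and 34.8% of wild type clusters. Nothing in the labels says that libraries came from separate cultures, so a p-value reflects only how these particular libraries vary, possibly for technical reasons. With 2 libraries against 2, an exact permutation test cannot give a p below 0.33. The sources used here do not give read depth, and folds were coarse: the 10 most frequent fold values covered 49.9% and 57.6% of the member clusters in the endogenous libraries.

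Most QKI clusters in coding exons and many in 5′ UTRs lay below input. The median log2 fold of coding exon clusters was -1.16 in endogenous library 1 and -0.44 in endogenous library 2, against 0.26 and 1.15 for all other clusters. Of coding exon clusters, 84.3% and 66.2% had a log2 fold below 0. The 5′ UTR clusters stood a little higher, with medians of -0.85 and -0.11 and with 74.4% and 53.5% below 0. Clusters in 3′ UTRs, at -0.16 and 0.30, lay between these and the introns. The order coding exon, 5′ UTR, 3′ UTR was the same in both libraries, while library 2 gave higher medians than library 1 in each of these regions.

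**Figure D1:**
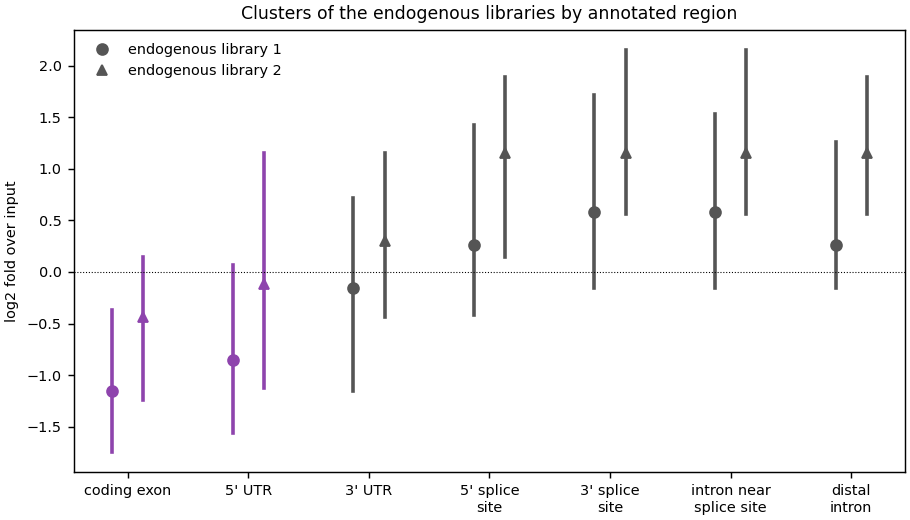
Log2 fold over input (vertical axis) of endogenous clusters by annotated region. Symbols are medians and bars run from the lower to the upper quartile, with coding exons and 5′ UTRs in purple. Coding exon medians of -1.16 and -0.44 are the lowest of the regions drawn, and distal intron medians are 0.26 and 1.15.

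Enrichment past both thresholds was rarer in coding exons than elsewhere in each of the 6 libraries. In the mutant libraries 1 of 2609 coding exon clusters (0.0383%) and 7 of 4788 (0.146%) were enriched, against 0.128% and 0.483% of all other classed clusters. The wild type libraries had 17 of 1787 (0.951%) and 16 of 2066 (0.774%), against 5.07% and 5.04%. In each of these tagged libraries the coding exon share was the lower of the pair. The endogenous libraries had 99 of 15819 (0.626%, exact Clopper-Pearson 95% interval 0.509 to 0.761) and 57 of 10416 (0.547%, 0.415 to 0.708), against 4.37% and 5.60%. Over clusters of every region that could be classed, 0.123% and 0.452% were enriched in the mutant libraries, and 4.99% and 4.95% for wild type. With the unclassed myc clusters included these were 0.0375% and 0.304% in mutant and 2.05% and 1.88% for wild type, and in endogenous, where every cluster has a region, 4.21% and 5.38% were enriched. The log2 ratio of the coding exon share to the share of all others averaged -2.33 ± 0.80 (SD, n = 6 libraries) and was negative in 6 of 6 libraries (exact two-sided sign-flip permutation p = 0.03125, the smallest that 6 libraries allow). Within the endogenous libraries alone it averaged -3.07, where the smallest exact p is 0.5. The endogenous libraries, unlike the myc ones, also list clusters below input. Among endogenous clusters above input, 3.97% and 1.62% of those in coding exons were enriched, against 7.10% and 6.36% of all others. Over the 6 libraries, the ratio was -1.77 with clusters above input only. It was -1.30 with the authors' priority label used as the region in place of the majority of bases. Intervals cover counting error only.

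Enriched clusters were also rarer in 5′ UTRs than elsewhere, by a smaller ratio on average. In mutant, 0 of 1127 clusters (which allows a share of up to 0.266%, taking 3 counts as the limit of a count of 0) and 3 of 1984 (0.151%) were enriched, against 0.126% and 0.464% of all others. In wild type the shares were 16 of 854 (1.87%) and 12 of 718 (1.67%), against 5.02% and 4.97%. In endogenous they were 81 of 4009 (2.02%) and 54 of 2414 (2.24%), against 4.23% and 5.41%. The log2 ratio averaged -1.36 ± 0.17 (SD, n = 6) and was negative in 6 of 6 libraries (exact sign-flip permutation p = 0.03125). The sign in mutant library 1 rests on its count of 0, to which 0.5 was added. Without that library the ratio was -1.32, at the smallest exact p that 5 libraries allow (0.0625). This call was lost with a log2 fold threshold of 2 (-0.46, exact p = 0.219) and with clusters above input only (-1.0, exact p = 0.0625).

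The lower folds of exons were also seen within genes. Where a gene had clusters in both, its median coding exon fold minus its median intron fold was -1.17 in endogenous library 1 (median of 5537 genes, 85.0% negative) and -1.40 in library 2 (3794 genes, 87.8% negative). For 5′ UTRs the difference was -1.07 (2386 genes, 79.7% negative) and -1.22 (1417 genes, 76.1% negative). For 3′ UTRs it was smaller, at -0.58 and -0.81. The 5′ UTR and coding exons of one gene hardly differed, by a median of 0 in 1774 genes and -0.07 in 915. Clusters of a gene share its RNA and its input, and these shares are descriptions.

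Among the gene lists with at least 50 coding exon loci, genes of ribosomal proteins had the lowest folds in coding exons. Coding exon loci of cytosolic ribosomal protein genes had medians of -2.51 and -2.82 over 328 loci at 76 genes, against -1.16 and -0.44 over all 22181 coding exon loci. None of them was enriched in both endogenous libraries, where 34 of all coding exon loci (0.153%) were, a share at which lists of this size would hold less than 1. Translation factors (232 loci, -1.97 and -1.80), replication histones (64 loci, -1.82 and -2.24) and tubulins, actins and chaperones (199 loci, -1.78 and -1.66) had lower medians than all loci too. Loci of tri-snRNP and U6 proteins (117, at -1.52 and -1.24) and of hnRNP and SR proteins (150, at -1.42 and -1.31), both groups of splicing factors, followed. None of these lists had a locus enriched in both libraries, and at the overall share each would also hold less than 1. Coding exons of ZNF genes, which encode zinc finger proteins, stood higher, at -0.61 and 0.15 over 318 loci.

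In 5′ UTRs ribosomal protein genes were low as well. They had medians of -2.24 and -2.61 over 78 loci, against -0.84 and -0.17 over all 5091. Medians were -2.03 and -2.45 for tubulins, actins and chaperones (20 loci), -1.09 and -1.78 for translation factors (29 loci) and -0.16 and 0.15 for ZNF genes (133 loci). By the authors' annotation, the lowest 5′ UTR locus listed in both libraries was in RPL27A, a large-subunit protein, at -5.69 and -4.82. It also touched a noncoding exon and an intron. Next came C6orf48 (-4.03 and -4.72) and RPL32 (-4.17 and -3.71). Whether other RNAs are encoded at these positions was not examined. The lowest coding exon loci were in RANBP1, a regulator of the Ran nuclear transport GTPase (-4.12 and -4.26), RPLP0, of the ribosomal stalk (-3.97 and -4.34), RPS9 (-3.87 and -4.24) and RPS16 (-3.84 and -4.10). These lowest loci were picked by a rule set after the values were seen. Single 5′ UTR loci enriched in both endogenous libraries were found among translation factors (1 of 29, 3.45%) and ZNF genes (1 of 133, 0.752%). Among all 5′ UTR loci the share was 0.707%, so the ZNF share was near it, and each list share rests on 1 locus. EEF1D, a subunit of the complex that recharges translation elongation factor 1A, had an enriched 5′ UTR locus at 3.15 and 3.01. ZNF382, a zinc finger repressor, had another, given below with the 5′ UTR loci.

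**Figure D2:**
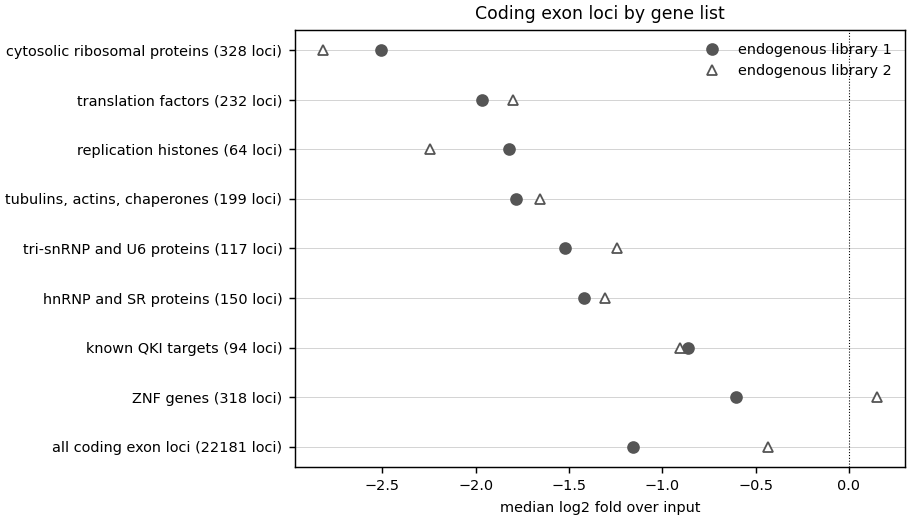
Median log2 fold over input (horizontal axis) of coding exon loci in the endogenous libraries, for the gene lists with at least 50 loci, with circles for library 1 and triangles for library 2. Of the lists drawn, ribosomal protein loci are lowest at -2.51 and -2.82, ZNF loci are highest at -0.61 and 0.15, and all coding exon loci stand at -1.16 and -0.44.

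Genes known from earlier work as QKI targets had 94 coding exon loci. Their medians were -0.86 and -0.91, above that of all coding exon loci in library 1 (-1.16) and below it in library 2 (-0.44). A single locus was enriched in both libraries (1.06%, against 0.153% of all coding exon loci), in CLIP1, a linker of microtubule plus ends (4.06 and 3.73, with no myc cluster). BIN1, a membrane-bending adaptor with muscle-specific exons, had a coding exon fold of 5.04 in endogenous library 1 but 0.98 in library 2. Of their 26 5′ UTR loci none was enriched in both, and the locus in NUMB, a Notch antagonist, reached 3.47 in library 1 and was unlisted in library 2.

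A small set of loci stood apart from this background. In endogenous libraries 1 and 2, 76 and 48 coding exon loci were enriched, 34 of them in both, at 32 genes. Among 5′ UTR loci 59 and 42 were enriched, 36 of them in both, at 33 genes. That is 0.153% of coding exon and 0.707% of 5′ UTR loci, against 1.63% of endogenous loci of every region. Of coding exon loci enriched in library 1, 44.7% were enriched in library 2, and 70.8% the other way. For 5′ UTR loci these shares were 61.0% and 85.7%. Over loci listed in both libraries the folds had a Pearson correlation of 0.79 and a Spearman rank correlation of 0.75 in coding exons (2641 loci) and of 0.84 and 0.79 in 5′ UTRs (935 loci). These correlations run across loci of 2 libraries, and loci are not independent replicates.

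The highest coding exon fold was in LPHN2, a latrophilin adhesion receptor, at chr1:82452579-82452699 (hg19, plus strand), where the cluster also touched a 3′ splice site. It was unlisted in both mutant libraries and stood at 4.92 and 6.74 in wild type, against 7.57 and 6.52 in endogenous. MBNL2, a muscleblind-family splicing regulator, at chr13:98017355-98017443 had no mutant cluster, 4.02 and 3.96 in wild type, against 4.88 and 5.40 in endogenous. Its locus touched a 3′ and a 5′ splice site. At both genes the wild type and endogenous libraries were past the threshold and the mutant libraries had no cluster.

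Some of the 10 highest coding exon loci had no myc cluster. MICAL3, an actin-oxidising monooxygenase, stood at 6.29 and 5.87 in endogenous at chr22:18358181-18358328, and FMNL2, a formin that elongates actin filaments, at 5.06 and 5.02. Neither had a cluster in any myc library. SNX9, a sorting nexin of endocytosis, carried 2 neighbouring enriched loci, one at chr6:158330743-158330823 with 3.90 and 3.41 in wild type, against 4.16 and 5.94 in endogenous. Its other locus, which touched a 3′ splice site, had 3.90 and 2.36 in wild type, against 5.31 and 4.12 in endogenous, and neither had a mutant cluster.

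Other loci among the 10 highest were weaker in wild type than in endogenous. PFKP, the platelet-type phosphofructokinase of glycolysis, had 2.07 and 1.90 in wild type, against 4.53 and 5.95 in endogenous. TMPO, which encodes lamina-associated polypeptides, had 2.58 and 2.02 in wild type, against 5.36 and 4.09 in endogenous. SLK, a Ste20-like kinase, was listed in wild type library 2 alone (3.22) and had 6.11 and 3.94 in endogenous. In all 3 genes no mutant cluster was listed, and the wild type values lay below both endogenous values. These loci were picked by their endogenous folds, a choice that itself favours lower wild type values. Differences between tagged and endogenous folds were not tested.

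LARP4B, a La-related RNA-binding protein, held both groups above threshold, at 4.50 and 3.61 in wild type, against 4.10 and 5.85 in endogenous. PAQR6, a membrane progestin receptor, was among the 2 genes with 2 enriched coding exon loci. Its higher one had 0.11 in mutant library 2, 2.50 and 1.70 in wild type, against 4.73 and 4.77 in endogenous. At the edge of the threshold, POLR2A, the largest subunit of RNA polymerase II, was just inside at 3.10 and 3.33 in endogenous, and RXRB, a retinoid X receptor, just outside at 3.56 and 2.96.

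**Figure D3:**
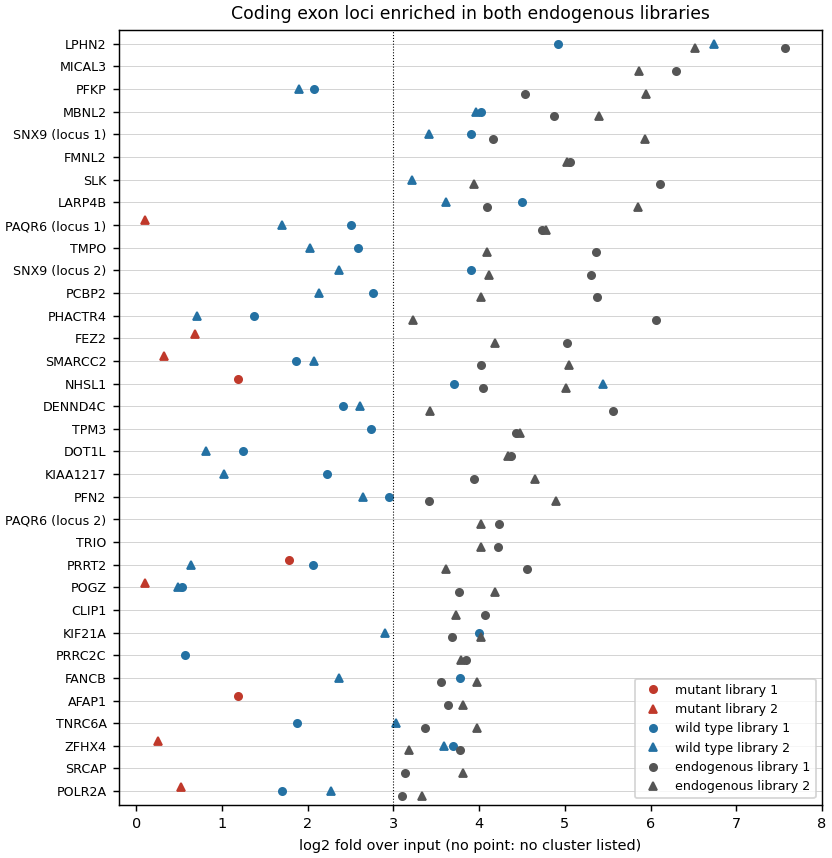
Log2 fold over input (horizontal axis) of the 34 coding exon loci enriched in both endogenous libraries, 1 row per locus, ordered by mean endogenous fold. Red is mutant, blue wild type and grey endogenous, circles are library 1 and triangles library 2, and the dotted line marks the threshold of 3. No mutant point reaches the line, and the wild type points pass it at 9 loci in library 1 and 8 in library 2.

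Coding exon loci enriched in both endogenous libraries often reached past the exon. Of the 34, 14 touched a 3′ splice site, 7 a 5′ splice site and 18 a splice site of either kind (52.9%, exact 95% interval 35.1 to 70.2), against 10.5% of 22091 coding exon loci enriched in neither library. Loci wholly annotated as coding exon were 12 of 34 (35.3%), against 84.4%. The enriched loci were longer, with a median of 144.5 bases against 41. Each joins clusters of both libraries, whereas only 2641 of all 22181 coding exon loci were listed in both. Merging itself can lengthen a locus and add to the regions it touches. A comparison limited to loci listed in both libraries was not made. Among loci of at least 100 bases the share touching a splice site was 13 of 28 (46.4%), against 19.9%. A 3′ UTR was touched by 7 of 34 (20.6%), against 2.59%, among them FMNL2, LARP4B, PAQR6 and TMPO.

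Their surroundings also differed. Within 500 bases of 20 of the 34 loci (58.8%) lay an enriched cluster of another region, against 1.18% of loci not enriched. Of their 32 genes, 25 had an enriched intron cluster (78.1%), against 39.3% of the 7352 genes with a coding exon locus enriched in neither library. For 5′ UTR loci the same shares were 9 of 36 (25%) against 1.19%, and 20 of 33 genes (60.6%) against 40.6% of 3341. A gene with both kinds of locus counts on both sides. Enriched 5′ UTR loci touched a splice site in 6 of 36 cases (16.7%), against 8.16%. Their median length was 165.5 bases against 55, and among loci of at least 100 bases the share was 18.8% (exact 95% interval 7.21 to 36.4), against 12.4%. Merging over both libraries bears on the length and touched regions of 5′ UTR loci as well. These are descriptions of the loci, and abutting clusters can be pieces of one binding stretch.

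Among 5′ UTR loci the highest was in TRIO, a guanine nucleotide exchange factor, at chr5:14488492-14488880 (plus strand), which also reached into the intron. It had no mutant cluster, 3.50 and 3.96 in wild type, against 6.54 and 7.03 in endogenous. TRIO was the 1 gene with enriched loci in both regions. Its coding exon locus, at chr5:14489076-14489200, touched a 5′ splice site, had no myc cluster, and stood at 4.22 and 4.02 in endogenous.

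HMGN1, a nucleosome-binding protein, was the strongest 5′ UTR locus with values in every library. At chr21:40717896-40718165 it had 0.61 and 0.51 in mutant, 2.48 and 2.37 in wild type, against 6.54 and 6.68 in endogenous, where its −log10 p reached the cap of 400. The 3 groups did not overlap there, at a locus picked by its endogenous folds. GPSM2, which orients the mitotic spindle, had 3.32 and 4.59 in wild type, against 6.30 and 6.33 in endogenous, with no mutant cluster.

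Other 5′ UTR loci among the 10 highest were also enriched in both tagged wild type libraries. PHKB, a regulatory subunit of phosphorylase kinase, had 5.24 and 4.45 in wild type, against 6.24 and 4.32 in endogenous. AACS, acetoacetyl-CoA synthetase, had 4.0 and 5.08 in wild type, against 5.55 and 5.35 in endogenous. L3HYPDH, a hydroxyproline dehydratase, had 1.91 in mutant library 2, 3.44 and 4.76 in wild type, against 4.49 and 4.90 in endogenous. The wild type and endogenous values overlapped in PHKB and L3HYPDH and did not in AACS, and the 1 mutant value lay below them all. SLAIN1, a microtubule plus-end protein, had 3.18 and 4.69 in wild type, against 4.92 and 4.94 in endogenous, with no mutant cluster.

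MAML2, a coactivator of Notch signalling, carried 2 enriched 5′ UTR loci on chromosome 11. The higher had no mutant cluster, 1.41 and 3.44 in wild type, against 6.50 and 5.01 in endogenous. ZNF382 was listed in wild type library 2 alone (3.02) and had 4.18 and 5.29 in endogenous. PBRM1, a subunit of the PBAF chromatin remodeller, touched a 3′ and a 5′ splice site, had no myc cluster, and stood at 4.41 and 5.06 in endogenous. CHORDC1, an HSP90 co-chaperone, and C6orf62 also had 2 enriched loci each. Another CHORDC1 locus was just outside the threshold at 2.93 and 3.27, and the EEF1D locus was the one just inside.

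**Figure D4:**
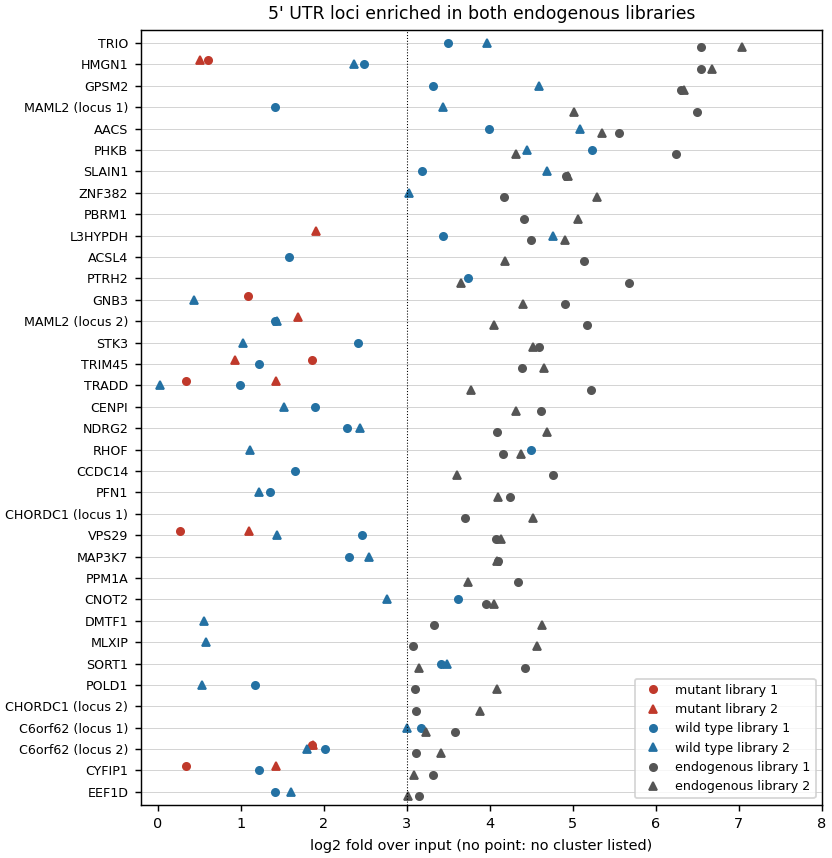
Log2 fold over input (horizontal axis) of the 36 5′ UTR loci enriched in both endogenous libraries, 1 row per locus, with colours, symbols and threshold line as for coding exons. No mutant point reaches the line, wild type points reach it at 11 and 10 loci (8 of the 10 also passed the −log10 p threshold), and HMGN1 has points in all 6 libraries.

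The comparison of the substituted with the unsubstituted protein asks which of these clusters depend on the substituted residues, which lie in the KH domain. At the 34 coding exon loci enriched in both endogenous libraries, 3 and 6 had a cluster in mutant, against 25 and 24 in wild type. The shares were 13.2% ± 6.24 in mutant and 72.1% ± 2.08 in wild type (SD, n = 2 each; exact permutation p = 0.33). For loci of every region enriched in both endogenous libraries, 12.8% and 12.5% were listed in mutant, against 89% and 86.5% in wild type. At the 36 5′ UTR loci, 7 and 8 were listed in mutant, against 28 and 27 in wild type, or 20.8% ± 1.96 in mutant and 76.4% ± 1.96 in wild type (SD, n = 2 each; exact permutation p = 0.33). The groups did not overlap in either region.

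None of these 70 loci was enriched in a mutant library. Among coding exon loci, 0 of 34 allows a share of up to 8.82%, and among 5′ UTR loci 0 of 36 allows up to 8.33%, again with 3 counts as the limit, and the upper bounds of the exact two-sided 95% intervals are 10.3% and 9.74%. In wild type 9 and 8 of the 34 and 11 and 8 of the 36 were enriched. Over loci of every region enriched in both endogenous libraries, 0.155% and 0.181% were enriched in mutant and 30.2% and 27.3% in wild type. Where a cluster was listed, the median log2 fold at the coding exon loci was 1.19 and 0.29 in mutant, 2.58 and 2.36 in wild type, against 4.23 and 4.10 in endogenous. At the 5′ UTR loci it was 0.61 and 1.43 in mutant, 2.36 and 2.37 in wild type, against 4.40 and 4.32 in endogenous. Both sets of loci were chosen by endogenous folds of at least 3. The endogenous medians are therefore high by that choice, and the gap between wild type and endogenous is partly built in. No mutant library listed 25 of the 34 and 27 of the 36, and both wild type libraries but no mutant library listed 16 and 17. No myc library listed 6 and 4.

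Several exon loci enriched by the tagged wild type protein were listed in 1 endogenous library alone. Enriched in both wild type libraries were 11 coding exon loci, of which 6 were enriched in both endogenous libraries, and 9 5′ UTR loci, of which 8 were. In wild type library 1 and 2, 25 and 24 coding exon loci (0.113% and 0.108%) were enriched. Among 5′ UTR loci 16 and 14 were (0.314% and 0.275%), where 0.873% and 0.923% of loci of every region were. HECTD4, a HECT-domain ubiquitin ligase, had 4.18 and 5.73 in wild type, against 4.21 in endogenous library 1 alone. SYNGR1, a synaptic vesicle protein, had 4.50 and 5.28 in wild type, against 4.32 in endogenous library 1 alone, and EPC2, an enhancer of polycomb homologue, 4.03 and 4.35 in wild type, against 5.82 in endogenous library 1 alone. NHSL1, listed in both endogenous libraries, had 1.19 in mutant library 1, 3.70 and 5.44 in wild type, against 4.04 and 5.01 in endogenous. The 1 5′ UTR locus enriched in both wild type libraries and not in both endogenous libraries was in ERLIN1, of endoplasmic reticulum lipid domains, at 3.87 and 3.76 in wild type, against 0.96 in endogenous library 1, a locus named after its values were seen.

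Few exon loci were enriched in a mutant library. In mutant libraries 1 and 2 these were 1 and 7 coding exon loci (0.00451% and 0.0316%) and 0 and 4 5′ UTR loci (0% and 0.0786%). Of loci of every region, 0.0086% and 0.0484% were enriched. No locus was enriched in both mutant libraries, and none of the 12 was enriched in a wild type or endogenous library. At the wild type and endogenous shares of these regions, 12 loci would hold less than 1 such locus, so these absences say little. TUT1, the terminal uridylyltransferase of U6 RNA, had 0.61 and 4.19 in mutant, no wild type cluster, and -0.74 and 0.15 in endogenous. ZNF326, a zinc finger protein of mRNA processing, had 3.34 and 0.82 in mutant, 0.33 in wild type library 2, and 1.06 in endogenous library 1. The others in coding exons were in SIRT3 (unlisted and 3.22 in mutant), ADAR, TRMU, EP300, ARNTL2 and THOC3. In 5′ UTRs they were ZNF782 (1.41 and 3.60 in mutant), FASTK (1.33 and 3.56), ANKLE2 (1.02 and 3.47) and GNG4 (unlisted and 3.06). Mutant library 2 gave 11 of the 12, and at each the other mutant library was under the threshold or had no cluster.

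Over all member loci, listing ran the opposite way from the enriched ones. Of all coding exon loci, 11.7% and 20.8% had a cluster in mutant, against 8.17% and 9.45% in wild type. Of all 5′ UTR loci, 22.2% and 38.2% had one in mutant, against 16.9% and 13.9% in wild type. Over loci of every region, 9.58% and 11.1% were listed in mutant, against 18.4% and 19.5% in wild type. The mutant minus wild type difference was 7.43 percentage points in coding exons and 14.8 in 5′ UTRs (exact permutation p = 0.33 for each), and the groups did not overlap. Mutant library 2 carried much of it: without that library the differences were 2.91 and 6.76 points, and without mutant library 1 they were 11.9 and 22.8.

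Introns of coding genes went the other way, with 8.55% and 9.55% of their loci listed in mutant and 18.5% and 20.0% in wild type. So did 3′ UTRs, with 17.9% and 15.2% in mutant and 25.9% and 23.8% in wild type. Set against the intron share of the same library on the log2 scale, the coding exon share was 1.92 higher in mutant than in wild type, the 5′ UTR share 2.02 higher and the 3′ UTR share 0.50 higher (exact permutation p = 0.33 for each). Enrichment did not follow listing. Of coding exon loci 0.00451% and 0.0316% were enriched in mutant, against 0.113% and 0.108% in wild type, and of 5′ UTR loci 0% (0 of 5091, which allows up to 0.0589%) and 0.0786%, against 0.314% and 0.275%. For 5′ UTRs this direction turned with a log2 fold threshold of 2, where the mutant minus wild type difference was 0.137 percentage points, against -0.255 at the threshold of 3.

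Wild type clusters were listed most often where the endogenous fold was high, and mutant clusters where it was below 0. Among coding exon loci with a mean endogenous log2 fold below -2 (500 loci), 13.6% and 62.2% were listed in mutant, against 5.4% and 6.4% in wild type. Among those at 3 and above (50 loci), 10% and 22% were listed in mutant, against 70% and 64% in wild type. The wild type share was higher in the highest bin than in the lowest in both of its libraries. The mutant share was lower in the highest bin in library 2. In mutant library 1 it was highest in between, at 26.3% for folds of -2 to -1 and 25.5% for -1 to 0, and the exact intervals of its lowest and highest bins overlapped. In 5′ UTRs the lowest bin (115 loci) gave 17.4% and 73.0% in mutant and 12.2% and 2.61% in wild type, and the highest (48 loci) 20.8% and 20.8% in mutant and 77.1% and 72.9% in wild type. There too mutant library 1 was highest in between, at 37.6% and 40.2% for the same folds.

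**Figure D5:**
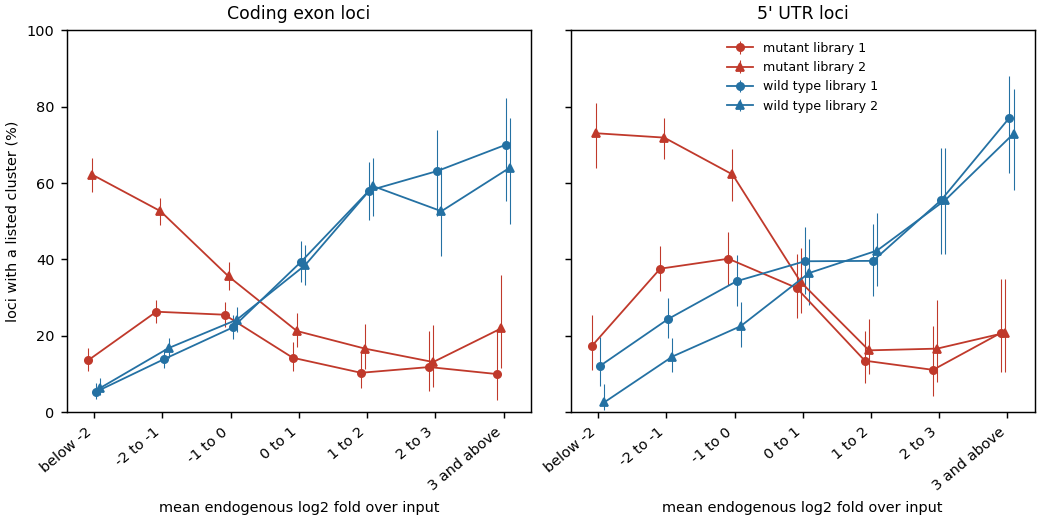
Share of loci with a listed myc cluster (vertical axis, %) by mean endogenous log2 fold (horizontal axis), for loci listed in both endogenous libraries. Red is mutant and blue wild type, circles are library 1 and triangles library 2, and bars are exact 95% binomial intervals. In coding exons at folds of 3 and above, mutant shares are 10% and 22% and wild type shares 70% and 64%, and below -2 they are 13.6% and 62.2% in mutant and 5.4% and 6.4% in wild type.

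A fit on fold size was possible where all 4 myc libraries listed a cluster. Sites without a mutant cluster are outside it, and its differences do not describe them. Of the loci enriched in both endogenous libraries, no mutant library listed 25 of the 34 in coding exons and 27 of the 36 in 5′ UTRs. Of 5470 such regions, limma called 1 higher (0.0183%) and 31 lower (0.567%) in mutant than in wild type, 0.585% in either direction, at an adjusted p under 0.05. None of the 108 coding exon or 137 5′ UTR regions was among them. On simulated data the fit recovered 10% of log2 shifts of 2 and 58% of shifts of 3, so this absence says little. At an unadjusted p under 0.05, 5 coding exon regions were higher and 2 lower, and 20 5′ UTR regions were higher and 2 lower. That is 4.63% and 1.85% of the coding exon and 14.6% and 1.46% of the 5′ UTR regions, against 7.26% and 5.03% of all regions. Without mutant library 1, 23 coding exon and 41 5′ UTR regions were higher at that p (21.3% and 29.9%, against 14.9% of all), and none passed the adjusted p. The median mutant minus wild type difference was 0.41 in coding exons (75% positive), 0.51 in 5′ UTRs (81.8% positive) and 0.26 over all regions (64.2% positive). With each library centred on its median these were 0.14, 0.25 and -0.01. Without mutant library 2 they were 0.14, 0.28 and 0.07.

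The regions of lowest p, chosen after their values were seen, went both ways. The coding exon region of VEZF1, a zinc finger transcription factor, had 0.02 and 0.69 in mutant and 2.45 and 2.50 in wild type (difference -2.12, SE 0.50, limma adjusted p = 0.178). The 5′ UTR of HMGN1 had 0.61 and 0.51 in mutant and 2.48 and 2.37 in wild type (difference -1.87, SE 0.47, limma adjusted p = 0.204). NDUFV2, a subunit of mitochondrial complex I, went up in its 5′ UTR region, with 2.61 and 2.11 in mutant and 0.41 and 0.38 in wild type (difference 1.96, SE 0.49, limma adjusted p = 0.198). None of these 3 passed the test. The libraries of the 2 groups did not overlap at them, which a pick by lowest p favours in itself.

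Against input, the same kind of fit over 102252 regions listed in both endogenous libraries called 60.7% higher and 2.86% lower. Of 2693 coding exon regions it called 268 higher and 1162 lower, with a median of -0.98, and of 937 5′ UTR regions 194 higher and 330 lower, with a median of -0.70. The median over all regions was 1.5. The fit gave every region the same standard error of 0.55, so its call amounts to a cut on the mean fold. With each library centred on its median, the counts were 39 higher and 1895 lower in coding exons (1.45% and 70.4%) and 40 higher and 557 lower in 5′ UTRs (4.27% and 59.4%), against 11.5% and 8.54% of all regions.

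The authors' reproducible peak lists, made from the 2 libraries of a group, held few exon peaks. Of 12363 endogenous peaks 67 were in coding exons (0.542%) and 65 in 5′ UTRs (0.526%). Among all endogenous clusters off the mitochondrial chromosome, 4.12% and 4.49% were in coding exons, and 1.04% in each library in 5′ UTRs. Of 3630 wild type peaks 3524 could be classed. Of these, 16 were in coding exons (0.441%) and 11 in 5′ UTRs (0.303%). Of 55 mutant peaks none was in either region. Only 38 of the mutant peaks could be classed, and 0 of 38 allows a share of up to 7.89%. Of the loci described here, 75 coding exon and 54 5′ UTR loci overlapped an endogenous reproducible peak, 21 and 13 a wild type one and 0 a mutant one.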

How the data were processed

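The members and gene lists were chosen with earlier results of these data known. Per the submitters' processing notes, SAMtools, STAR, cutadapt and UMI-tools were used, with build hg19; the sources used here do not name the peak caller. The deposited clusters hold the authors' log2 fold over size-matched input and the authors' −log10 p, capped at 400 and listed as 0 where the fold was 0 or below. The deposited myc tracks also hold a score, which was not used. Inputs enter only through the authors' folds. Read depth is unknown, so no interval rests on it.

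Region and gene name came from the authors' annotation of the endogenous clusters; 99.1% of coding exon clusters had 1 gene name, and 32 coding exon clusters had a tie. Coordinates are 1-based. Overlap meant at least 1 shared base on the same strand, and a locus took from each library the cluster with the highest −log10 p. Shares were compared by exact permutation over libraries (ratios with 0.5 added to counts), and folds with limma 3.58.1 in R 4.3.3, with Benjamini-Hochberg adjustment over all regions. Python 3.11.15, pandas 2.3.3, NumPy 2.4.6, SciPy 1.17.1 and matplotlib 3.10.9 did the rest. On simulated data with 5470 regions, limma recovered 2, 10, 58 and 92% of log2 shifts of 1, 2, 3 and 4. The simulated folds were not cut at 0, unlike the myc folds.

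Named genes were, per region, the 10 highest endogenous loci, the 5 genes with the most enriched loci, the 5 highest wild type loci, up to 8 mutant-enriched loci, the 4 lowest loci and up to 4 per gene list. The planned rule for the lowest loci, a −log10 p of at least 3 in both libraries, found none, so the lowest means among loci listed in both were taken. Alternatives were other thresholds, centring, missing clusters set to 0, a replicate block and each library left out.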

Additional observations from a re-analysis of the deposited data

How the results depend on the processing

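Of the alternatives run, 76 values kept their direction and call or stayed near the main value, 14 no longer passed the threshold, 11 counts moved and 1 turned. The log2 ratio of enriched shares ranged from -2.56 to -2.12 in coding exons and from -1.42 to -1.32 in 5′ UTRs with each library left out; each such p was 0.0625, the smallest that 5 libraries allow. With clusters above input only, it was -1.77 in coding exons. For 5′ UTRs it was -0.46 at a log2 fold threshold of 2 and -1.0 with clusters above input only. The 5′ UTR mutant minus wild type difference in enriched share turned to 0.137 percentage points at a threshold of 2. With missing myc clusters set to 0, limma called 3 coding exon regions higher and 38 lower in mutant (0.121% and 1.53% of 2484), and 7 and 29 5′ UTR regions (0.544% and 2.26% of 1286), against 0.533% and 6.39% of all 169019 regions; this counts unlisted clusters as values. Centring the endogenous libraries gave 39 higher and 1895 lower coding exon regions and 40 and 557 5′ UTR regions. A mean −log10 p of at least 1 left 0 lower in both regions, which follows from the −log10 p of 0 below input, and 127 higher in 5′ UTRs. The replicate numbers did not pair the samples (correlation of deviations -0.04 over 5470 regions), and with the replicate number as a block limma called 0 higher and 0 lower in either region. The cause of the other shifts was not tested. With depth unknown, the precision of low folds cannot be stated.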
